A study of Mus musculus with 5 samples.

Results

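Expression of 6 adipokine genes and the 2 adiponectin receptor genes was examined in mouse prostate tumors, with each gene read by its symbol from a table of 24527 genes. The 8 genes are Adipoq, Lep, Retn, Cfd, Rbp4, Nampt, Adipor1 and Adipor2. They were selected on the counts of castrated against intact samples in this same table, whose differences were already known, so that their values in this comparison are a description and carry no test. All 8 were in the table, and all 8 passed the filter on low counts, which asked for more than 1 CPM (the count divided by the sample's total and scaled to the same size in all samples) in at least 2 samples. Adipoq, Lep, Retn and Cfd passed it through castrated samples alone.

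The study profiled total RNA of prostate tumor tissue by RNA-seq in 3 samples from castrated and 2 from intact TripleTg mice, to ask which transcripts differ in tumors that grow after androgen withdrawal. All 5 samples came from mice that carried the hHGFtg transgene together with the alleles H11 hMET/+ and Ctnnb1 L(Ex3)/+ and the driver PB Cre4. These express human HGF throughout the body and, in the prostate epithelial cells where the probasin promoter drives Cre, human MET and a stabilized β-catenin. The castrated mice had lost their testes at 4 months, and both groups were analyzed at 8 months of age. The labels number the samples of a group as replicates and do not say that each came from a separate mouse, so that p-values measure only the spread between these samples, which may be technical. Total counts were 28015507, 18951782 and 20492061 in castrated replicates 1 to 3 and 21560355 and 22853501 in intact replicates 1 and 2. The tissue was sequenced in bulk, so that fewer cells of a type and less RNA per cell cannot be told apart.

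Adipokines are proteins released by fat tissue that act on other organs. Adiponectin (Adipoq), leptin (Lep) and adipsin (Cfd) are made mainly by mature fat cells, and in mice resistin (Retn) is too. Retinol binding protein 4 (Rbp4), which carries vitamin A in blood, is made mainly by liver and also by fat, whereas the enzyme Nampt and the adiponectin receptors Adipor1 and Adipor2 are found in most cell types. Fat surrounds the prostate, and adiponectin and leptin have long been studied as signals between fat and prostate cancer.

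The label of the tissue was checked first against epithelial genes. The keratin gene Krt8, a marker of luminal cells, stood at 895, 764 and 1146 CPM in the castrated samples and at 1195 and 623 CPM in the intact samples, so that epithelial transcripts were abundant in every sample. Tgm4, a secretory gene of the normal mouse prostate named after its values were seen, stood at 0.428, 0.0528 and 0.0488 CPM in the castrated samples, at 0.232 CPM in intact replicate 1 and at 1268 CPM in intact replicate 2. Intact replicate 2 therefore stood apart from the other 4 samples in this gene, while intact replicate 1 lay within the castrated range. This gene alone does not say which intact sample is atypical. The differences of Adipoq, Rbp4, Nampt, Adipor1 and Adipor2 are also given without intact replicate 2. Another sample, castrated replicate 3, stood apart in the liver gene Alb, as described with Rbp4.

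The bases before the transcription start of Adipoq, Lep and Rbp4 are shown because Adipoq and Lep were both high in castrated replicates 2 and 3, while Rbp4 was highest in castrated replicate 3 alone. They are the 150 bases before a RefSeq start in GRCm38.p6, the assembly of the mm10 build, printed 5′ to 3′ on the strand of the gene. Adipoq is on the plus strand at chr16:23146386-23146535, Lep on the plus strand at chr6:29060071-29060220 and Rbp4 on the minus strand at chr19:38124812-38124961. Capitals mark a match on either strand to TTGCNNAA, the core of the site read by C/EBP factors, and in Rbp4 also TATAAA, the TATA box.
Adipoq: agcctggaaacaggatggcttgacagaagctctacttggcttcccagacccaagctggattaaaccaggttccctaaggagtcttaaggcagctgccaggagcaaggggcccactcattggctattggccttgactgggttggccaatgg
Lep: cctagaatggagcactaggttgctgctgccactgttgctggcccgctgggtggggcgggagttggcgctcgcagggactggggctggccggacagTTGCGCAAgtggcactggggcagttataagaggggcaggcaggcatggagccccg
Rbp4: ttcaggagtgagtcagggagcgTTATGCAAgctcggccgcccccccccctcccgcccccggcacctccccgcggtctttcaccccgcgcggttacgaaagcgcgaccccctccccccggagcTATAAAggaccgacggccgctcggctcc

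In the Lep window the match lay 55 to 48 bases before the start. In the Rbp4 window, which belongs to the more downstream of the pair of starts that RefSeq lists and overlaps the longer transcript, the C/EBP letters lay 128 to 121 bases and the TATA box 28 to 23 bases before the start. TTGCNNAA and its reverse complement TTNNGCAA, which describe the same sites, were present in 10.8% of 32851 RefSeq windows that each reached from 250 bases before to 50 bases after a start, and TATAAA in 13.6% of them. The DR1 element, a direct repeat read by PPARγ with its partner RXR, was searched with up to 2 mismatches and was present in 3.86% of windows and in 0 of the 8 genes' windows. The window of the more upstream Rbp4 start and the windows of Adipoq, Retn, Cfd, Nampt, Adipor1 and Adipor2 held none of these letters. A match here is a run of letters and not a measured binding site.

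Adipoq, which encodes adiponectin, lies on chromosome 16 at 23146536 to 23157968 on the plus strand. It had 15, 1282 and 1402 counts in castrated replicates 1, 2 and 3 and 0 and 2 counts in intact replicates 1 and 2, which is 0.535, 67.6 and 68.4 CPM against 0 and 0.0875 CPM. Castrated replicates 2 and 3 were nearly equal, castrated replicate 1 was far below them, and all 3 were above both intact samples. The mean was 45.5 ± 39.0 CPM in castrated samples (SD, n = 3) and 0.0438 ± 0.0619 CPM in intact samples (SD, n = 2). The counts pooled over each group and divided by the summed totals gave a ratio of 888 between castrated and intact samples, with a 95% exact interval from 246 to 7340 that covers counting error only. The fitted log2 fold change was 9.80 with a standard error of 2.55. Without intact replicate 2, which held both intact counts, the intact group was at 0 counts and the fitted value, 13.001, depends on the small count that edgeR adds and is no bound. With 3 counts in intact replicate 1 as the floor, the pooled level was then at least 288-fold higher in castrated samples.

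Lep, the leptin gene, lies on chromosome 6 at 29060221 to 29073876 on the plus strand. It had 0, 297 and 307 counts in the castrated samples and 0 counts in both intact samples, or 0, 15.7 and 14.98 CPM against 0 and 0 CPM. The groups overlapped, because castrated replicate 1 held no Lep read. A count of 0 allows up to 0.107 CPM in castrated replicate 1, and up to 0.139 and 0.131 CPM in intact replicates 1 and 2. With 3 counts set over the intact group as the floor, the pooled level was at least 133-fold higher in castrated samples.

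Retn and Cfd were also high in castrated replicates 2 and 3 alone. Retn, the resistin gene on chromosome 8 at 3655770 to 3659818, had 2, 464 and 404 counts in the castrated samples against 1 and 0 counts in the intact samples, or 0.0714, 24.5 and 19.7 CPM against 0.0464 and 0 CPM. Castrated replicate 1 lay above intact replicate 1 only by 2 counts against 1, so that these samples could not be told apart at this depth. The pooled ratio for Retn was 573 with a 95% exact interval from 103 to 22650. Cfd, which encodes the complement protease adipsin and lies on chromosome 10 at 79890853 to 79892655, had 48, 2790 and 3461 counts in the castrated samples and 0 counts in both intact samples. These were 1.71, 147 and 169 CPM against 0 and 0 CPM, so that every castrated sample was above both intact samples. The pooled level of Cfd was at least 1382-fold higher in castrated samples, again with the floor of 3 counts over the intact group.

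**Figure D1:**
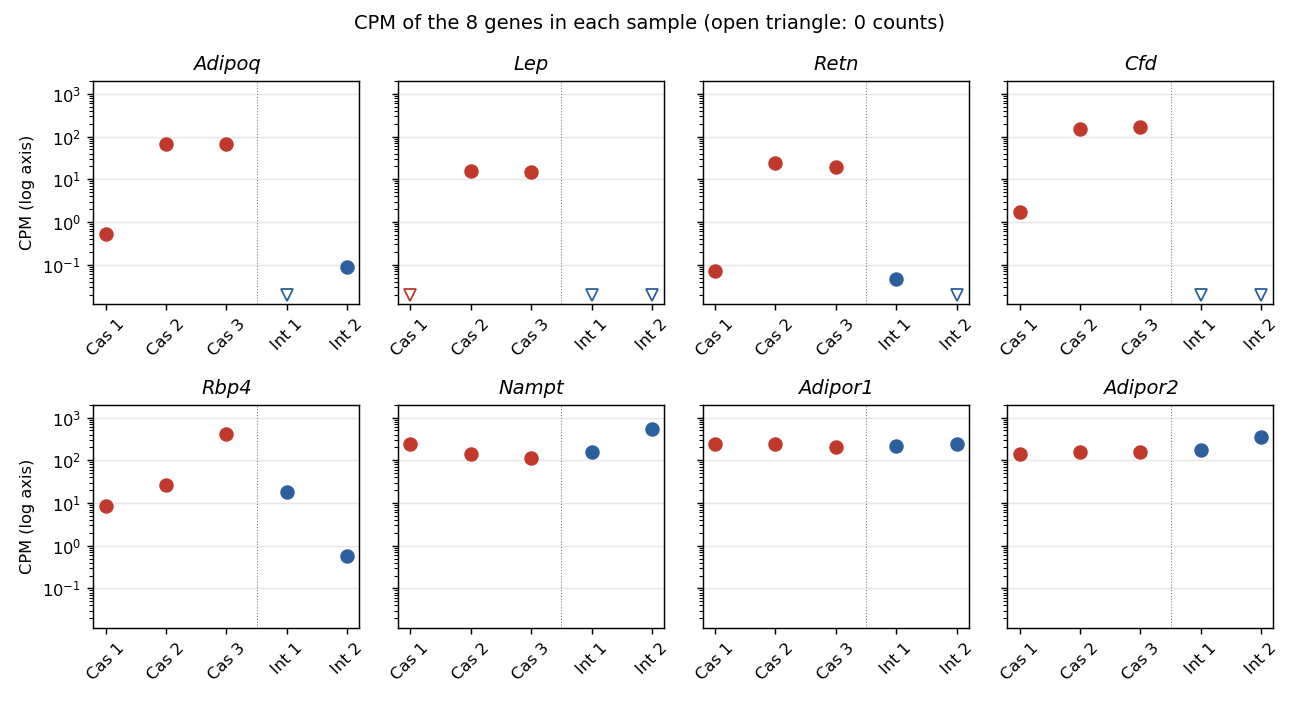
Each panel plots the CPM of 1 gene on a log axis in castrated replicates 1 to 3 (Cas, red) and intact replicates 1 and 2 (Int, blue), 1 point per sample, with open triangles for samples with 0 counts. Adipoq, Lep, Retn and Cfd are high in castrated replicates 2 and 3 alone, Rbp4 is highest in castrated replicate 3, Nampt and Adipor2 are highest in intact replicate 2, and Adipor1 is nearly level.

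Within castrated replicates 2 and 3 the 4 genes stood in similar proportion to each other. There were 0.232 Lep counts per Adipoq count in castrated replicate 2 (95% exact interval 0.204 to 0.263) and 0.219 in castrated replicate 3 (0.193 to 0.248). Cfd counts were 2.18 per Adipoq count (2.04 to 2.33) and 2.47 (2.32 to 2.63), and Retn counts 0.362 (0.325 to 0.403) and 0.288 (0.257 to 0.322). The intervals of these 2 samples overlapped for Lep and, narrowly, for Cfd, and they did not overlap for Retn. In castrated replicate 1, Cfd stood at 3.20 counts per Adipoq count (1.76 to 6.15) and Retn at 0.133 (0.0148 to 0.573), and 0 Lep counts beside 15 Adipoq counts allowed a ratio of up to 0.279. These intervals included the values of both other castrated samples, so that at this depth a different proportion was not detectable in castrated replicate 1.

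Genes that mark fat cells were highest in the same samples as these 4. The summed level of 19 such markers was 518, 3989 and 2330 CPM in castrated replicates 1 to 3 and 276 and 432 CPM in intact replicates 1 and 2, and 0 of the 19 were at 0 in any castrated sample. Without Lpl, which is also counted below among the other adipokines, the other 18 summed to 361, 2312 and 1408 CPM against 237 and 233 CPM. Plin1, which coats the lipid droplet of fat cells, stood at 0.107, 32.3 and 35.5 CPM in the castrated samples and at 0.0928 and 0 CPM in the intact samples. The markers Aqp7, named after its values were seen, and Pck1 were at 0 in both intact samples, Cidec was at 0 in intact replicate 1, and Plin1 at 0 in intact replicate 2. Lpl, a lipase that other cells also make, was the most abundant of the 19 in TPM after Fabp4, with 157, 1677 and 922 CPM in the castrated samples and 38.6 and 199 CPM in the intact samples. The summed level of the 4 adipokines was 2.32, 255 and 272 CPM in castrated replicates 1 to 3 against 0.0464 and 0.0875 CPM in the intact samples. The part of the amount of fat in the dissected tissue in the adipokine values was not tested.

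**Figure D2:**
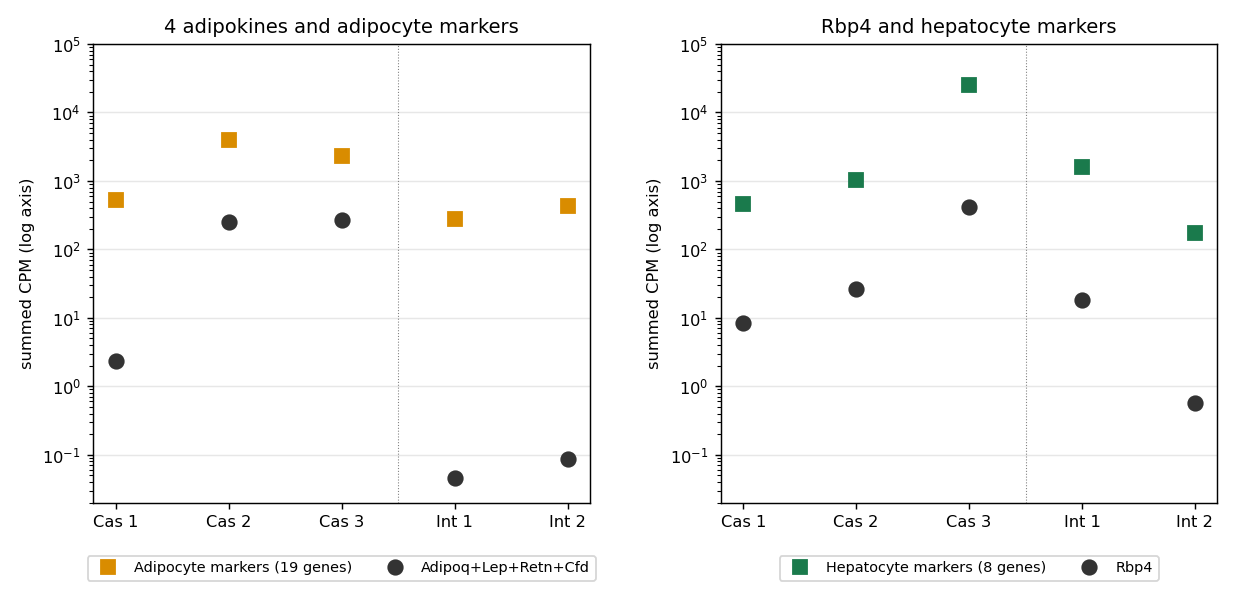
Summed CPM on a log axis in each sample, for 19 adipocyte marker genes beside the sum of Adipoq, Lep, Retn and Cfd (left) and for 8 hepatocyte marker genes beside Rbp4 alone (right). The 4 adipokines and the adipocyte markers are highest in castrated replicates 2 and 3, and Rbp4 and the hepatocyte markers in castrated replicate 3, at 412 and 25331 CPM.

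The genes with a pattern most like that of a given gene were taken by the root mean square difference of log2 CPM (with a prior count of 2), centred on each gene's mean, over the 5 samples. For Adipoq these were, in order, Cidec with a difference of 0.397, Pck1, Car3, Plin1, Retn and Cfd with 0.962. For Lep they were Retn with 0.282, Plin1, Pck1, Plin4, Cidec and Car3 with 0.878. Cidec and Plin4, like Plin1, are lipid droplet proteins, Pck1 makes glycerol for fat storage in fat cells, and Car3 is a carbonic anhydrase abundant in fat and muscle. Cidec, Pck1, Car3, Plin1 and Retn were near both Adipoq and Lep, with values in castrated replicates 2 and 3 far above those in the other samples. With a prior count of 0.5, 3 of the 6 genes were shared with this list for Adipoq and 4 of 6 for Lep, so that the order rests in part on how low counts are handled. Car3, the most abundant, stood at 1.21, 515 and 567 CPM against 0.557 and 1.71 CPM.

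Rbp4 had another pattern. The gene lies on chromosome 19 at 38116620 to 38125321 on the minus strand and had 234, 494 and 8450 counts in castrated replicates 1 to 3 against 396 and 13 counts in intact replicates 1 and 2. These were 8.35, 26.1 and 412 CPM against 18.4 and 0.569 CPM. Castrated replicate 3 was far above all other samples, castrated replicate 1 was below intact replicate 1, and the groups overlapped. The highest value was 725 times the lowest, and 98.7% of all tested genes had a smaller ratio of highest to lowest CPM. The fitted log2 fold change was 4.02 with a standard error of 2.26. It was 0.92 without castrated replicate 3, 7.95 without intact replicate 1 and 3.02 without intact replicate 2.

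Hepatocyte genes were highest in the same sample as Rbp4. Alb, the serum albumin gene of liver, stood at 49.7, 1.90 and 13865 CPM in castrated replicates 1 to 3 and at 11.97 and 0.656 CPM in intact replicates 1 and 2. The 8 hepatocyte markers summed to 456, 1037 and 25331 CPM in the castrated samples and to 1617 and 171 CPM in the intact samples, where Trf, which other cells also make, held most of the sum outside castrated replicate 3. Fgb, a fibrinogen chain of liver, was at 1.04, 0 and 2062 CPM against 0.0928 and 0.0438 CPM, and Ttr, the plasma partner of Rbp4, at 0.678, 0.264 and 314 CPM against 0.371 and 2.71 CPM. The part of liver transcripts in the Rbp4 value of castrated replicate 3 was not tested. In castrated replicate 2, with Rbp4 at 26.1 CPM, Apoa1 and Fgb were at 0, Alb at 36 counts and Trf at 1032 CPM, and the part of liver transcripts there was not tested either.

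The count of Rbp4 per count of Alb was 0.168 (95% exact interval 0.146 to 0.193) in castrated replicate 1, 13.7 (9.78 to 19.8) in castrated replicate 2 and 0.0297 (0.0291 to 0.0304) in castrated replicate 3. It was 1.53 (1.31 to 1.80) and 0.867 (0.380 to 1.95) in intact replicates 1 and 2. The Rbp4 count per Adipoq count was 15.6 in castrated replicate 1, 0.385 in castrated replicate 2 and 6.03 in castrated replicate 3. Rbp4 therefore kept no fixed proportion to either gene over the samples. The genes most like Rbp4 were Mrap, Hrg, Gsta3, Afp, Hp and Ces1f, at differences from 0.531 to 1.03. Of these Hrg, Afp and Hp encode plasma proteins of adult or fetal liver, and Mrap encodes a partner of the melanocortin receptors that fat cells also express. Hp stood at 16.8, 115 and 711 CPM in the castrated samples and at 19.5 and 4.81 CPM in the intact samples. This is the same order of samples as for Rbp4, which follows in part from the choice of Hp by its likeness to Rbp4.

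Nampt makes nicotinamide mononucleotide, the rate-limiting step in the salvage of NAD, and its product is also released as the adipokine visfatin. The gene lies on chromosome 12 at 32820335 to 32853369 on the plus strand. Its span, introns included, shares 5033 bases on that strand with the span of the lincRNA gene Gdap10. Exons were not compared, so that an effect of this overlap on the Nampt counts was not determined. It had 6893, 2695 and 2380 counts in castrated replicates 1 to 3 and 3345 and 12304 counts in intact replicates 1 and 2, or 246, 142 and 116 CPM against 155 and 538 CPM. Intact replicate 2 was above all other samples, castrated replicate 1 was above intact replicate 1, and the groups overlapped. The mean was 168 ± 68.7 CPM in castrated (SD, n = 3) and 347 ± 271 CPM in intact samples (SD, n = 2). The fitted log2 fold change was -1.11 with a standard error of 0.61, and it turned to 0.11 without intact replicate 2.

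The lowest 2 values of Nampt were in castrated replicates 2 and 3, the samples in which Adipoq, Lep, Retn and Cfd were high. The genes most like Nampt were Fzd3, Tcf7, Mrps18a, Pde4dip, D730003I15Rik and Camsap3, at differences from 0.0677 to 0.196. Fzd3 is a Frizzled receptor for Wnt ligands and Tcf7 a nuclear partner of β-catenin. Fzd3 stood at 38.5, 23.3 and 20.8 CPM in the castrated samples and at 26.5 and 93.1 CPM in the intact samples. Tcf7 stood at 70.0, 44.2 and 35.7 CPM against 52.8 and 139 CPM. The other genes named here were also highest in intact replicate 2, such as Mrps18a at 59.6, 31.6 and 29.1 CPM against 45.6 and 150 CPM. A link between Nampt and Wnt genes was not tested.

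Adipor1 was the most even of the 8 genes. It encodes an adiponectin receptor, lies on chromosome 1 at 134415378 to 134433350 on the plus strand, and had 247, 236 and 200 CPM in castrated replicates 1 to 3 against 222 and 240 CPM in intact replicates 1 and 2. The groups overlapped fully, with means of 228 ± 24.3 CPM (SD, n = 3) and 231 ± 13.1 CPM (SD, n = 2). Its highest value was 1.23 times its lowest, and only 4.06% of tested genes had a smaller ratio. The fitted log2 fold change was -0.05 with a standard error of 0.20, and it was 0.04 without castrated replicate 3 and also without intact replicate 2. The genes most like Adipor1, Slc35e2, Naa35, Fpgt, Capn7, Rnf25 and Dnajb6, lay at differences of 0.0269 to 0.0396.

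Adipor2, which encodes the other adiponectin receptor, lies on chromosome 6 at 119353150 to 119417528 on the minus strand. It stood at 140, 157 and 155 CPM in castrated replicates 1 to 3 and at 175 and 348 CPM in intact replicates 1 and 2. Every castrated sample was below both intact samples, although intact replicate 1 lay much nearer to them than to the other intact sample. The means were 151 ± 9.36 CPM (SD, n = 3) and 261 ± 122 CPM (SD, n = 2), and the fitted log2 fold change was -0.84 with a standard error of 0.35. Without intact replicate 2 it was -0.21, and without intact replicate 1 it was -1.28. The genes most like Adipor2 were Srsf7, Ncapd3, Snx10, Eif4ebp2, Crebzf and Rplp2, and Eif4ebp2, a repressor of translation initiation, stood at 244, 247 and 262 CPM against 270 and 544 CPM.

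The balance of the receptors differed between the intact samples. There were 1.76, 1.5 and 1.29 Adipor1 counts per Adipor2 count in castrated replicates 1 to 3 and 1.27 and 0.691 in intact replicates 1 and 2. The interval of castrated replicate 3 (1.23 to 1.35) overlapped that of intact replicate 1 (1.21 to 1.32), so that these samples differed by less than the counting error. Intact replicate 2 was the only sample with more Adipor2 than Adipor1 counts.

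Per length, the levels of the genes could be ordered. TPM, the count per gene length scaled to the sample's sum of such values, was computed from the deposited lengths, and mean TPM in castrated samples was 272 ± 233 for Cfd, 268 ± 409 for Rbp4, 155 ± 17.4 for Adipor1, 87.4 ± 74.9 for Adipoq, 86.4 ± 34.0 for Nampt, 83.0 ± 6.80 for Adipor2, 27.2 ± 24.0 for Retn and 7.41 ± 6.44 for Lep (SD, n = 3). Neighbours in this order differed by less than the larger SD in all pairs except Adipor2 and Retn, where the lowest Adipor2 value, 75.6 TPM, was above the highest Retn value, 46.0 TPM. In intact samples mean TPM was 158 ± 108 for Nampt, 146 ± 11.5 for Adipor1, 130 ± 44.3 for Adipor2 and 17.4 ± 23.4 for Rbp4 (SD, n = 2), and the remaining 4 genes were at 0.0701 TPM or less. In castrated replicates 2 and 3, Adipoq at 132 and 129 TPM was of the same order as its receptor Adipor1 at 165 and 135 TPM, whereas in intact samples Adipor1 stood at 154 and 137 TPM beside 0 and 0.140 TPM of Adipoq.

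**Figure D3:**
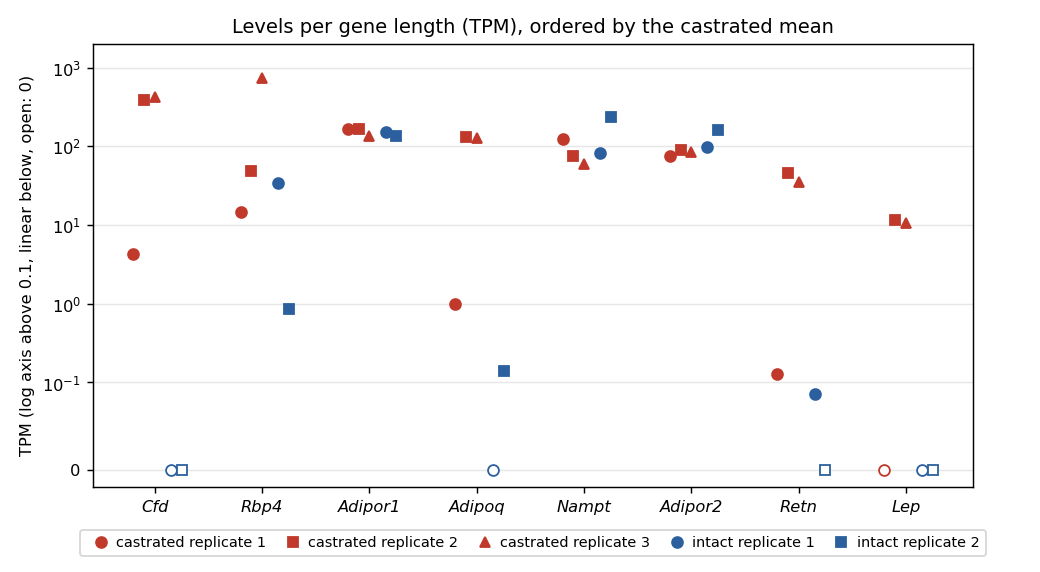
TPM of the 8 genes in each of the 5 samples, on an axis that is logarithmic above 0.1 and linear below, with genes ordered by their mean in castrated samples and open symbols at 0. The receptor genes and Nampt lie between 59.3 and 234 TPM in every sample, whereas the fat cell adipokines reach from 0 to 426 TPM.

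Across the whole table, genes were tested between castrated and intact samples with edgeR's quasi-likelihood test. Of 14612 genes tested, 0 had a Benjamini-Hochberg adjusted p under 0.05 with an absolute log2 fold change above 1, which is a share of 0%, and 0 of the 8 genes did. At the unadjusted threshold, which was an unadjusted p under 0.05 together with an absolute log2 fold change above 1, 1120 genes were higher and 476 lower in castrated samples, or 7.66% and 3.26%, and DESeq2 called 703 higher and 286 lower at its adjusted p with the same fold change, or 4.81% and 1.96%. Of the 14612 genes, 502 were above 1 CPM in no intact sample and so passed the filter through castrated samples alone, which sets their direction, and 279 of the 1120 were among these. The edgeR count at the unadjusted threshold was 893 without castrated replicate 2, 867 without castrated replicate 3 and 2570 without intact replicate 1, where the lone intact sample is assumed to vary as the castrated samples do. Every castrated sample was above both intact samples for 3 of the 8 genes (Adipoq, Retn and Cfd) beside 17.8% of all tested genes, and below both for 1 (Adipor2) beside 15.3%. Since the 8 were chosen with this comparison known, nothing is read from these counts.

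The fitted log2 fold changes of the 8 genes ran from -1.11 to 14.22 with a median of 6.53, beside a median of -0.03 over all tested genes. With Lep and Cfd, which had 0 counts in the intact group, set at their lower bounds, the median was 5.53. The values of Lep and Cfd in the fit, 10.84 and 14.22, depend on the small count that edgeR adds and are no bounds. With castrated replicate 2 or 3 left out and the filter applied anew, Adipoq, Lep and Retn no longer passed it, and the median of the remaining 5 genes was -0.08 and 0.04. It was 8.41 without intact replicate 1.

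**Figure D4:**
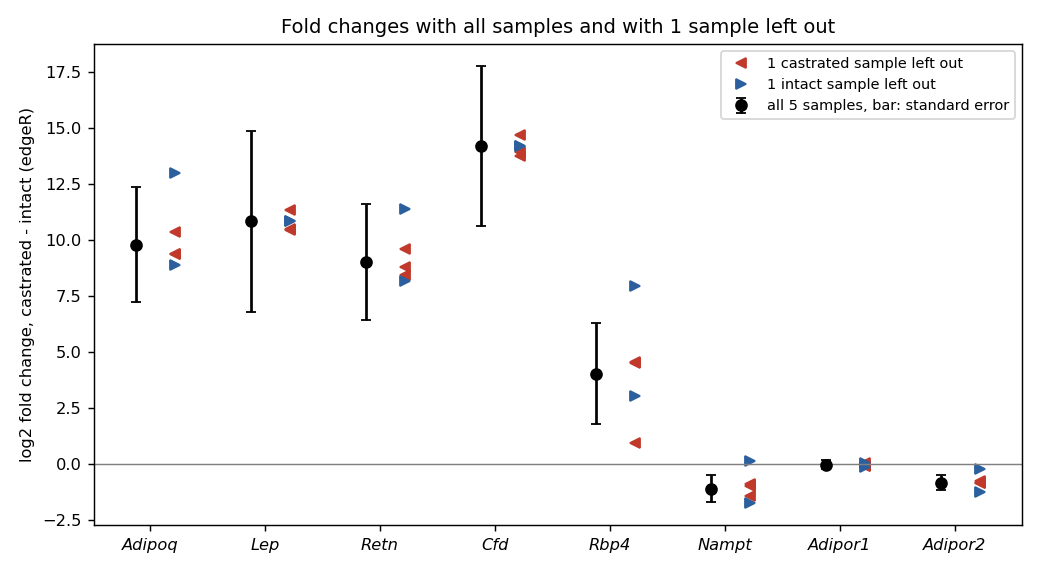
Fitted log2 fold changes of castrated against intact samples for the 8 genes, with all 5 samples (black, bars are standard errors) and with 1 castrated (red) or 1 intact (blue) sample left out. Rbp4 ranges from 0.91 to 7.95, Nampt from -1.76 to 0.11 and Adipor2 from -1.28 to -0.21 when 1 sample is left out. These ranges are from fits with the filter of all samples kept, an alternative chosen after seeing the data. Where the intact samples in the fit hold 0 counts (Lep and Cfd throughout, Adipoq without intact replicate 2, Retn without intact replicate 1), the point depends on the small count that edgeR adds.

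Of 29 other secreted factors described as adipokines that passed the filter, 23 had a higher and 6 a lower fitted level in castrated samples, beside 47.9% of all tested genes with a higher fitted level, and the median log2 fold change was 1.06 beside -0.03 over all tested genes. At the unadjusted threshold of p and fold change, 7 of the 29 were higher and 0 lower, beside 7.66% and 3.26% of all genes, and 0 passed after adjustment with edgeR, where DESeq2 gave 12 at the same unadjusted threshold. C1qtnf9, named after its values were seen, and Retnla passed the filter through castrated samples alone, and Retnla is 1 of the 7. All 12 macrophage markers had a higher fitted level in castrated samples, and they summed to 2790, 7492 and 3108 CPM against 1224 and 1652 CPM, with Lyz2 the most abundant and none at 0 in any sample. Agt, the angiotensinogen gene of liver and fat, named after its values were seen, stood at 1.93, 2.11 and 183 CPM against 0.186 and 1.09 CPM, with its high value in castrated replicate 3, the sample with the most Alb. The part of macrophage and liver transcripts in the values of this list was not tested. Retnla, a resistin relative that macrophages also make, had the largest log2 fold change, 7.81 with a standard error of 1.88, from 1.25, 42.5 and 21.0 CPM in the castrated and 0.0464 and 0.131 CPM in the intact samples. Apoe, the apolipoprotein with the highest level of the list in TPM, stood at 2332, 3521 and 2930 CPM against 1033 and 1102 CPM, a log2 fold change of 1.43. Igf1, named after its values were seen, had 173, 303 and 230 CPM against 44.3 and 70.3 CPM, so that unlike the fat cell adipokines it was high in all 3 castrated samples. Lcn2, an iron carrier also made by neutrophils, overlapped between groups at 214, 206 and 730 CPM against 53.2 and 428 CPM, and the same held for Lpl and for Grem1, whose log2 fold change of -1.39 was the lowest of the list.

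Of 35 receptors, partners and relays of the 8 gene products that passed the filter, 21 had a higher and 14 a lower fitted level, beside 47.9% of all tested genes with a higher one, and the median log2 fold change was 0.21. At the unadjusted threshold of p and fold change, 5 were higher and 3 lower, beside 7.66% and 3.26% of all tested genes, and the count in both directions was 5 without castrated replicate 2 and also without intact replicate 1. The leptin receptor gene Lepr stood at 13.03, 15.6 and 32.7 CPM in the castrated samples and at 87.7 and 7.70 CPM in the intact samples, so that the intact samples lay on either side of all castrated samples. Cdh13, which binds adiponectin at the cell surface, was at 329, 275 and 200 CPM against 574 and 41.4 CPM, with the same arrangement of samples. Cap1 and Tlr4, both described as resistin receptors, had log2 fold changes of 0.64 and -0.21, and every castrated sample was above both intact samples for Cap1 (419, 512 and 463 CPM against 274 and 312 CPM) and not for Tlr4.

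Among genes around Rbp4 and Cfd, the groups did not overlap for Stra6, C3, C3ar1 and Cfp, beside 17.8% of all tested genes with every castrated sample above and 15.3% with every castrated sample below both intact samples. Stra6, the receptor that takes up retinol from Rbp4, stood at 156, 169 and 182 CPM in castrated and at 250 and 451 CPM in intact samples, a log2 fold change of -1.10 with a standard error of 0.32. Its castrated values lay close together, and unlike Rbp4 it was not out of range in castrated replicate 3. C3, the complement component cleaved in the alternative pathway that adipsin starts, was at 713, 1165 and 3334 CPM against 323 and 453 CPM, and C3ar1, which binds the C3a fragment, at 64.3, 322 and 157 CPM against 30.4 and 42.7 CPM, with a log2 fold change of 2.29. Cfp, which encodes properdin, the stabilizer of the alternative pathway, was at 49.9, 98.4 and 46.7 CPM against 19.9 and 22.4 CPM and was named after its values were seen. Cfb, the substrate of adipsin, named after its values were seen, overlapped between groups at 2.07, 2.37 and 5.42 CPM against 1.02 and 2.14 CPM. C3 is also a major product of liver and was highest in castrated replicate 3, the sample with the most Alb, and the part of liver transcripts in it was not tested. C3ar1 and Cfp were highest in castrated replicate 2, as was the sum of the 12 macrophage markers, at 7492 CPM. The part of macrophage transcripts in these genes was not tested. Ttr had the largest log2 fold change of the list, 6.01 with a standard error of 3.44, from castrated replicate 3 alone.

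Downstream of the adiponectin receptors, Ppargc1a, a coactivator of mitochondrial genes, had the lowest log2 fold change of the list, -1.37 with a standard error of 0.35. It stood at 18.1, 12.5 and 11.3 CPM in the castrated samples and at 47.0 and 24.7 CPM in the intact samples, and the groups did not overlap. Calr, described as a partner of adiponectin at the cell surface and the most abundant of the list in TPM, overlapped between groups at 1177, 938 and 1009 CPM against 975 and 803 CPM.

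Of the enzymes that make and use NAD 14 passed the filter, of which 9 had a higher and 5 a lower fitted level, beside 47.9% of all tested genes with a higher one. The median log2 fold change was 0.10, and 3 were higher and 0 lower at the unadjusted threshold of p and fold change, beside 7.66% and 3.26% of all tested genes (1 in all without castrated replicate 3). Intact replicate 2, where Nampt was highest, held the highest value of 6 of the 14, and castrated replicate 3 that of 4. The shares over all tested genes were not counted, so that nothing is read from this. The median was 0.60 without intact replicate 2. Qprt, of the route from tryptophan to NAD, had the largest log2 fold change, 4.31 with a standard error of 1.69, and stood at 0.821, 1.32 and 11.7 CPM in the castrated and 0.417 and 0.0438 CPM in the intact samples, so that it passed the filter through castrated samples alone. This sets its direction, and Qprt is 1 of the 3 at the unadjusted threshold, where the other 13 genes held 2. Among the 14110 tested genes that did not pass through castrated samples alone, 841 were higher at that threshold. Nadk, which makes NADP, was highest in intact replicate 2, at 122, 115 and 134 CPM against 74.3 and 148 CPM. Sirt2, a deacetylase that uses NAD, was at 67.8, 81.7 and 86.2 CPM against 45.3 and 46.8 CPM, whereas Parp1, Nadk and Nmnat2 overlapped between groups, with log2 fold changes of 0.78, 0.10 and -0.93.

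Regulators of fat cell differentiation, most of them transcription factors, were measured beside the adipokines. The list also holds the coactivator Ppargc1b and the deacetylase Sirt1, both named after their values were seen, and Sirt1 is counted among the 14 NAD genes as well. Of 22 that passed the filter, 14 had a higher and 8 a lower fitted level, beside 47.9% of all tested genes with a higher one. The median log2 fold change was 0.69, and 6 were higher and 0 lower at the unadjusted threshold of p and fold change, beside 7.66% and 3.26% of all tested genes. That count was 2 without castrated replicate 3 and also without intact replicate 2, and the median was 0.35 without castrated replicate 2. Prdm16 and Ebf2, the latter named after its values were seen, passed the filter through castrated samples alone, which sets their direction. Prdm16 is 1 of the 6, and the other 20 regulators held 5 at that threshold. Among the 14110 tested genes that did not pass through castrated samples alone, 841 were higher at it. Cebpa, a C/EBP factor of mature fat cells named after its values were seen, stood at 24.3, 110 and 98.1 CPM in the castrated samples and at 12.4 and 14.5 CPM in the intact samples, with castrated replicates 2 and 3 high as for Adipoq and Lep. Pparg, the master regulator of fat cell formation and also named after its values were seen, was at 9.71, 24.2 and 21.2 CPM against 16.2 and 7.26 CPM and overlapped between groups. Prdm16, a factor of brown fat cells, had the largest log2 fold change of the list, 3.13 with a standard error of 0.81, at 2.36, 1.16 and 4.44 CPM against 0.278 and 0.306 CPM, and passed the filter through castrated samples alone. Of the 3 most abundant in TPM, Klf5 and Hif1a overlapped between groups, and Atf3, a stress response factor, was at 58.6, 158 and 72.7 CPM against 57.2 and 50.8 CPM, with every castrated sample above both intact samples. Stat5a overlapped as well, with its highest value, 171 CPM, in intact replicate 2.

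Of the adipocyte markers 19 passed the filter, 9 of them through castrated samples alone, which sets the direction of those 9. The other 10 were above 1 CPM in at least 1 intact sample. Of these, 5 were higher and 0 lower in castrated samples at the unadjusted threshold of p and fold change. Among the 14110 tested genes that did not pass through castrated samples alone, 841 were higher. The shares over all tested genes were 7.66% higher and 3.26% lower. The 9 held another 6 at that threshold, and the median log2 fold change of all 19 was 2.89, which nothing is read from. With the filter applied anew, 12 markers passed without castrated replicate 2 and 12 without castrated replicate 3, with medians of 1.88 and 2.13. Pck1 had the largest fitted value, with 0.214, 20.3 and 22.1 CPM in the castrated samples and 0 in both intact samples. Cd36, a fatty acid carrier that macrophages and endothelial cells also express, stood at 115, 1411 and 581 CPM against 4.87 and 19.7 CPM. Fabp4 was at 37.9, 283 and 194 CPM against 26.9 and 48.9 CPM, and Pnpla2, a lipase of many tissues, at 84.8, 133 and 116 CPM against 104 and 62.3 CPM, so that both overlapped between groups.

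**Figure D5:**
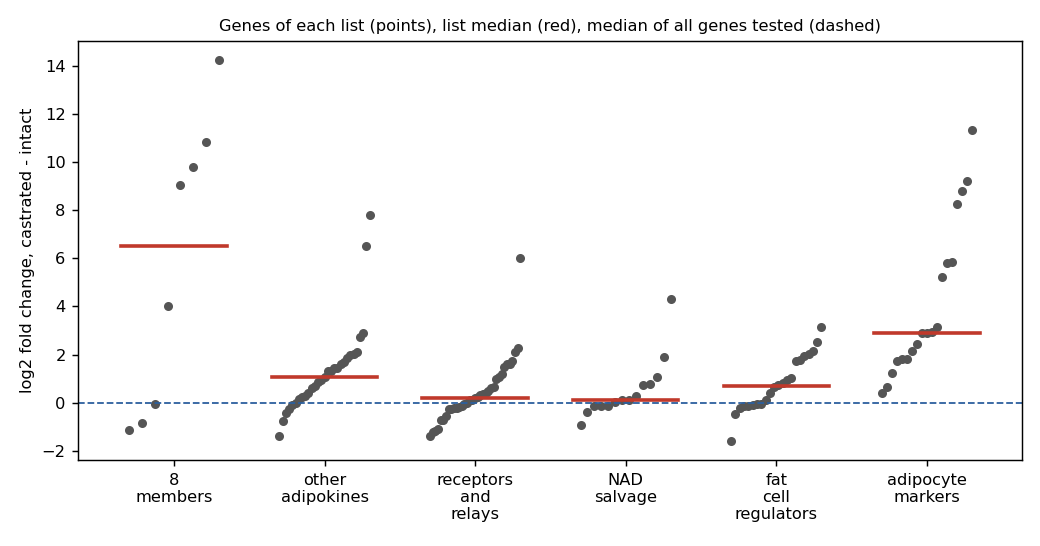
Fitted log2 fold changes of castrated against intact samples for the tested genes of each list (points, sorted), with the median of the list (red) and of all 14612 tested genes (dashed, -0.03). List medians are 6.53 for the 8 genes, 1.06 for other adipokines, 0.21 for receptors and relays, 0.10 for NAD genes, 0.69 for fat cell regulators and 2.89 for adipocyte markers.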

How the data were processed

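Prostate tumor RNA in 3 samples from castrated and 2 from intact TripleTg mice was sequenced after depletion of ribosomal RNA. The deposited values are raw read counts per gene; per the submitters' processing notes and the methods, the authors used Trimmomatic 0.39, STAR 2.7.9 and HTSeq 2.0.2 with mm10. The strand setting of the counting and the definition of the deposited gene length (in kilobases, used only for TPM) were not given in the sources used here.

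CPM is the count divided by the sample's total. Counts were tested with edgeR 4.0.16 (R 4.3.3, limma 3.58.1): TMM normalization, genes above 1 CPM in at least 2 samples, quasi-likelihood F-test, Benjamini-Hochberg adjustment over all tested genes. Standard errors were derived from each log2 fold change and its F statistic (absolute change over root F). Of edgeR's quasi-likelihood fits, the newer one was used, a choice made with earlier results of these data known. The procedure was tested on simulated data, where the share of unchanged genes among edgeR's calls was above the nominal level. The p-values measure the spread between samples, which may be technical.

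The 8 genes, the gene lists and the rules were chosen with earlier results of these data known. Named from each list were the 3 genes highest in mean TPM, the largest and the lowest log2 fold change, the receptors of the 8 products, and the 6 genes nearest to each of 6 members by pattern; other names are said to be chosen after seeing values, and some genes are not reported here. Lists covered other adipokines, receptors and relays, NAD genes, fat cell regulators, and markers of adipocytes, brown fat, preadipocytes, macrophages, neutrophils, lymphocytes, smooth and skeletal muscle, hepatocytes, endothelium and prostate epithelium. Sequences are from RefSeq (GRCm38.p6), where all 8 genes matched by symbol. In GENCODE transcripts, 0 of 8 genes shared 100 or more bases at 95% identity with another gene. Samples of a group differed by far more than counting error (chi-square per gene 134 or more). Alternatives were DESeq2 1.42.0, other scaling and filters, a replicate block, leaving out each replicate and, chosen after seeing the data, edgeR's older fit, leaving out a replicate with the filter of all samples kept, ratios of counts within a sample and adipocyte markers without Lpl. Intervals and floors cover counting error only.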

Additional observations from a re-analysis of the deposited data

How the results depend on the processing

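Counts of genes called with edgeR were 0 under other scalings, filters, fits and the block, 1 without intact replicate 1 (Coch, named after its values were seen, log2 fold change -8.97, edgeR adjusted p 0.0176, with the lone intact sample assumed to vary as the castrated samples do), and 989 with DESeq2. Leaving out 1 replicate gave 867 to 2570 genes at the unadjusted threshold of p and fold change (1596 with all samples). Same-numbered samples share only a number (correlations of deviations 0.149 and -0.045). With the replicate block there were 975 such genes, 5 of the receptors and relays, 0 NAD genes and 1 fat cell regulator, the hepatocyte median was 1.79, the log2 fold change was 1.9965 for Rbp4 and -0.65 for Nampt, that of Adipor1 turned to 0.0406, and the median of the 8 genes was 5.02. DESeq2 gave 12 other adipokines. Leaving out 1 replicate, the log2 fold change ranged from -0.1491 to 0.0423 for Adipor1, from -1.7549 to 0.1141 for Nampt and from 0.92 to 7.95 for Rbp4, and the median of the 8 genes (5 where the rest no longer passed the filter) from -0.0811 to 8.41. List medians ranged from 1.04 to 1.37 (other adipokines), 0.0522 to 0.54 (receptors and relays), -7e-04 to 0.60 (NAD genes), 0.35 to 0.96 (fat cell regulators), 1.88 to 3.37 (adipocyte markers) and 1.05 to 10.72 (hepatocyte markers). Counts at that threshold ranged from 5 to 7 (receptors and relays), 1 to 3 (NAD genes) and 2 to 9 (fat cell regulators). With the filter of all samples kept, an alternative chosen after seeing the data, genes at that threshold numbered 922, 898 and 2588 without castrated replicate 2, castrated replicate 3 and intact replicate 1. Adipor1 was then at 0.0351 and the hepatocyte median at 2.04 without castrated replicate 3, Adipor1 at 0.0409 and Nampt at 0.1138 without intact replicate 2, and the median of other adipokines at 1.3391 without intact replicate 1. The median of the 8 genes then ranged from 4.85 to 8.41. The cause of these shifts was not tested. With a prior count of 2, the fitted values of Lep and Cfd were 6.86 and 10.22. By CPM rather than TPM, the castrated mean of Lep over Adipoq was 0.224 in place of 0.0848. Without Lpl, a change made after seeing the data, the adipocyte median was 2.92. With 2 intact samples, the spread of that group rests on 1 difference.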

Other observations

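Markers of other cell types, all described by the edgeR fit with 0 genes past its adjusted p, were counted beside a median log2 fold change of -0.03 over all tested genes, of which 47.9% had a higher fitted level in castrated samples, and beside shares of 7.66% (castrated higher) and 3.26% (castrated lower) of them at the unadjusted threshold, which joins p under 0.05 with an absolute log2 fold change above 1. All 12 macrophage markers had a higher fitted level in castrated samples, with a median log2 fold change of 1.42 and 8 at the unadjusted threshold, and Cd68 stood at 99.0, 627 and 269 CPM against 55.1 and 59.3 CPM. All 8 smooth muscle markers were on the same side, with a median of 2.32 and 7 at the unadjusted threshold, and Myh11 stood at 20.9, 68.9 and 128 CPM against 6.12 and 4.99 CPM. Medians were 1.29 for 7 preadipocyte markers (3 at the unadjusted threshold), 0.67 for 6 neutrophil markers (1) and 0.55 for 8 endothelial markers (1). The lymphocyte markers Ms4a1, Cd79a and Cd79b passed the filter through castrated samples alone, which sets their direction. Of 7 hepatocyte markers 3 passed through castrated samples alone, with 1 higher among those and 0 among the other 4 at that threshold, and the median of the 7 was 9.56. Of the brown fat markers 3 of 7 passed the filter, with a median of -0.30 and 0 at the unadjusted threshold. Skeletal muscle markers passed in 2 of 9 cases, with a median of -0.44 and 0 at the unadjusted threshold, and 9 of 14 prostate epithelial markers passed, with a median of -0.21 and 0 at the unadjusted threshold. Of the genes that the naming rule takes from these lists, every castrated sample was above both intact samples for Lyz2, C1qa, Cd68, Tagln, Acta2, Actg2, Myh11, Fabp5, Pi16, Csf3r, Tek, Dio2 and, having passed the filter through castrated samples alone, Cd79a, Cd79b and Ms4a1, beside 17.8% of all tested genes. The groups overlapped for Mertk, Smtn, Ly6a, Dpp4, S100a8, S100a9, Ngp, Ly6g, Cd3g, Cd8a, Cdh5, Pecam1, Emcn, Otop1, Cidea, Tnni2, Mylpf, Krt8, Krt18, Epcam and Hoxb13. The naming rule takes some of these genes by their log2 fold change in this same comparison, so that nothing is read from how many did not overlap.

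Dpp4, which had the lowest log2 fold change of the preadipocyte markers, stood at 14.9, 28.2 and 58.7 CPM in the castrated samples. It was at 1.72 CPM in intact replicate 1 and at 364 CPM in intact replicate 2, the sample with the highest Nampt, Adipor2 and Tgm4. The other named markers of this list had no such peak in intact replicate 2. In intact replicates 1 and 2, Ly6a stood at 255 and 328 CPM, Fabp5 at 46.2 and 49.5 CPM and Pi16 at 76.8 and 76.0 CPM. The cell type behind the Dpp4 value was not tested.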
